A study of Mus musculus with 6 samples.

Results

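Sorbs2, Ano1, Kctd12b and Zbed5 were lower in osteocytes of mice with an osteocyte-specific knockout of estrogen receptor alpha (ERα) than in control littermates. This held at the brightest probe set of each gene. The report follows all probe sets of these genes across the 6 arrays of the study. The 4 genes were chosen by their position among the genes of 1 comparison, knockout against control. With Rgs5 they held the first 5 places by p among named genes whose 3 knockout values all lay below all 3 control values. Their differences between the groups are therefore given as a description, with no test. A probe set, the group of array probes that together read 1 transcript, was taken for a gene where the platform annotation listed that gene and no other. This gave 9 probe sets for the 4 genes, out of 34945 probe sets that named 18193 genes. There were 4 for Sorbs2, 2 for Ano1, 2 for Kctd12b and 1 for Zbed5.

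The study measured total RNA of calvarial osteocytes, the cells embedded in the bone of the skull vault. Cells from digestion fractions 4 to 6 were sorted for green fluorescent protein driven by the Dmp1 promoter, which both groups carried. The knockout group (ERαΔOcy/ΔOcy, osteocyte-specific ERαKO) and the control group (labelled WT littermate, and ERαflox/flox in the extraction protocol) had 3 arrays each. All were female C57/BL6 mice of 10 to 12 days. The sources used here do not name the promoter that drove Cre or say whether controls carried Cre, so Cre and loss of ERα cannot be told apart. The design text speaks of no pooling and the protocol of pooled calvarial tissue. If tissue was shared, the spread between arrays of a group is not the spread between mice.

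The 4 genes belong to different families. Sorbs2 (also ArgBP2) is an adaptor protein with a sorbin homology region and SH3 domains that links Abl kinases, vinculin and actin at stress fibres, focal adhesions and the Z-discs of striated muscle. Ano1 (TMEM16A) is a chloride channel opened by calcium, known from smooth muscle, pacemaker cells of the gut and secretory epithelia. Kctd12b is an X-linked relative of Kctd12, whose products bind GABA-B receptors and set the time course of their signalling. Zbed5 encodes a BED zinc finger protein that derives from a hAT transposase gene.

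Signals are given as deposited on a linear scale. Levels are log2 of the quantile-normalised signal plus 16, on which the change of a dim probe set is understated. Array medians of the deposited signal ran from 18.7 to 28.6, the highest in knockout replicate 3, and no detection calls were used here. The number of arrays limits the precision. Osteocyte markers were present, with control levels of Dmp1 from 12.68 to 12.98 and of Phex from 10.90 to 11.04. Esr1, which encodes ERα, differed by -0.20 ± 0.13 (SE) at its brightest probe set, with overlapping groups. Its probe set 1421244_at had deposited signals of 11.6 to 20.2 in control and of 1.0 to 2.5 in knockout arrays. The sources used here do not say whether these probe sets lie in the deleted part, so Esr1 does not check the labels. In bulk RNA, fewer cells of a type and less RNA per cell cannot be told apart.

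**Figure D1:**
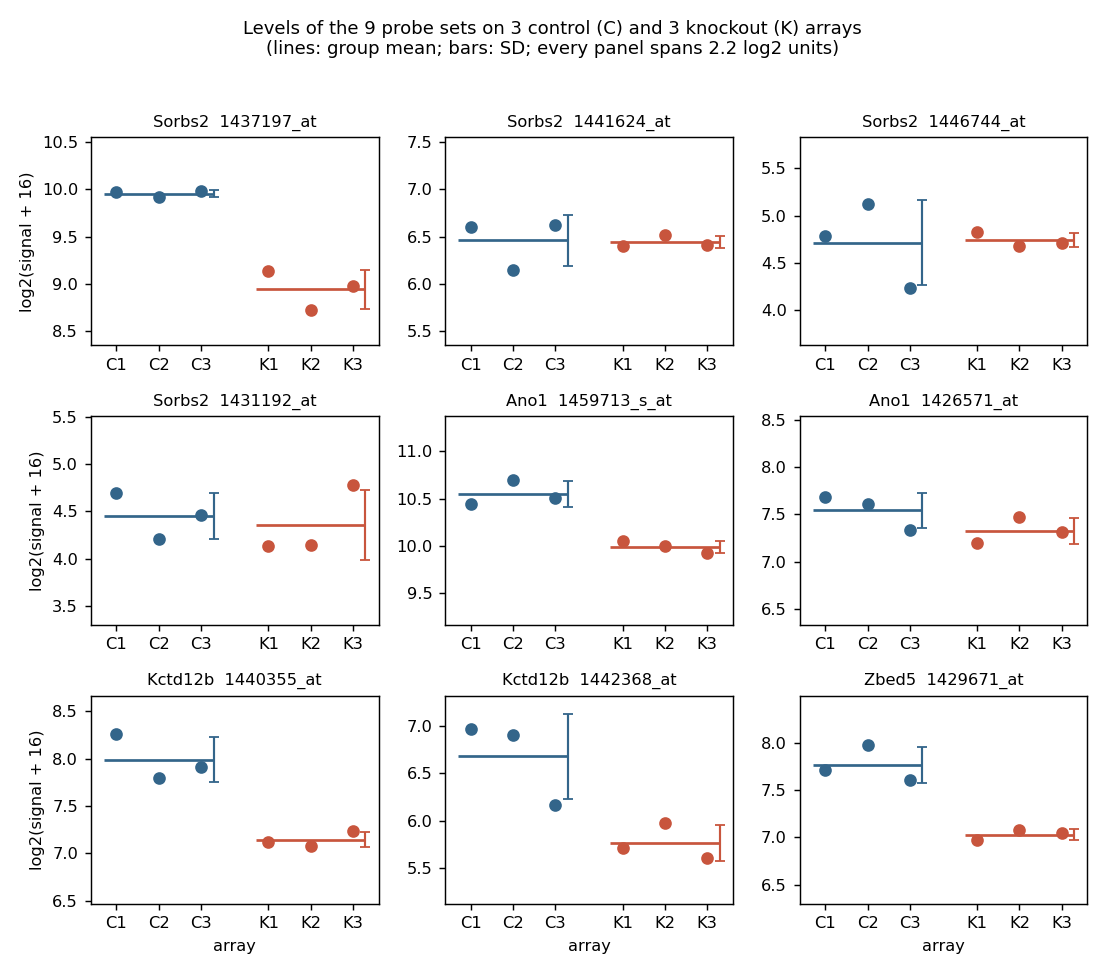
Each panel plots the level, log2(signal + 16) after quantile normalisation, of 1 of the 9 probe sets on control arrays C1 to C3 (blue) and knockout arrays K1 to K3 (red), with lines at group means and bars of 1 SD. The groups do not overlap in 5 panels, the brightest probe set of each gene and Kctd12b 1442368_at, and overlap in the other 4.

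Sorbs2 had the widest gap of the 4 genes at 1 probe set and none at its 3 others. At 1437197_at the deposited signals of the control arrays were 1033.0, 876.3 and 865.5, and those of the knockout arrays were 530.4, 388.0 and 613.3, here and throughout in the order of replicates 1 to 3. All control arrays lay above all knockout arrays, as deposited and after normalisation. Control arrays averaged 9.96 ± 0.04 and knockout arrays 8.95 ± 0.21 (SD, n = 3 each), a difference of -1.01 ± 0.11 (SE), or 2.01-fold higher in control. The knockout arrays spread from 8.73 to 9.14 while the controls lay within 9.92 and 9.98. Among the 10916 tested genes, 15 had a difference further below 0.

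The other probe sets of Sorbs2 were far dimmer. The signal at 1441624_at was 85.3, 49.8 and 71.3 in control and 66.7, 70.1 and 88.2 in knockout arrays, with a difference of -0.02 ± 0.17 (SE). At 1446744_at it was 12.0, 17.6 and 2.2 in control and 11.9, 9.0 and 13.1 in knockout arrays, and the difference was 0.03 ± 0.23 (SE). At 1431192_at it was 10.2, 2.2 and 4.9 in control and 1.5, 1.6 and 14.6 in knockout arrays, with a difference of -0.10 ± 0.20 (SE). The groups overlapped at all 3, and the last 2 lay under the level of 5.38 below which genes were left out of the test. Over the 6 arrays Pearson's r of 1437197_at with these 3 probe sets was 0.04, -0.05 and 0.23. Spearman's rank correlation was 0.43, -0.03 and 0.26, so the order of arrays was not the same. The last 2 are too dim for their order to show disagreement. The sources used here do not say which transcripts of Sorbs2 each probe set reads.

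Sorbs2 is annotated with several transcripts, and RefSeq (GRCm38.p6) gives 3 start-site windows for it, each from 250 bases before to 50 after a start. They are shown because its probe sets disagreed and may read different transcripts. All lie on the plus strand, at chr8:45507538-45507837, chr8:45627501-45627800 and chr8:45661743-45662042.
Sorbs2 window 1: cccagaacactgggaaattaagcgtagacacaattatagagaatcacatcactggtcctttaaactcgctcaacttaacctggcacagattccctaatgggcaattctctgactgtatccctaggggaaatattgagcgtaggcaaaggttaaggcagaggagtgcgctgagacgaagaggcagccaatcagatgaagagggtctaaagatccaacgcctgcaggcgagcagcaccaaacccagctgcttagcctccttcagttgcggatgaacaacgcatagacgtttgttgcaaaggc
Sorbs2 window 2: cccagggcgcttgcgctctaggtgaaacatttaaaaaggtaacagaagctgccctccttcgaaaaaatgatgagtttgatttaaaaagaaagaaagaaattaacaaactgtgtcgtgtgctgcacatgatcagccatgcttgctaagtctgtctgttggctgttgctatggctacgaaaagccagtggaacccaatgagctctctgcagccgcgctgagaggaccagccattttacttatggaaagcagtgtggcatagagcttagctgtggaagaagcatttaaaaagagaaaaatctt
Sorbs2 window 3: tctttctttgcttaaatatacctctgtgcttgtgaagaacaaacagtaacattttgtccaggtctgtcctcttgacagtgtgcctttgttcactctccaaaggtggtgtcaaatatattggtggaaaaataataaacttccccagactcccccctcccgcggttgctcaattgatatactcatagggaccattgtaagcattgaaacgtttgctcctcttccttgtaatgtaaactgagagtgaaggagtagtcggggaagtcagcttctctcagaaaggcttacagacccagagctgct
Their GC content was 49.0%, 44.0% and 43.7%, against a median of 52.7% over all 32851 windows in the table. None of the 3 held the estrogen response element (GGTCA and TGACC with 3 bases between them), its arm GGTCA alone, the CArG box of SRF, the AP-1 site TGANTCA, the GC box GGGCGG or the MCAT element CATTCC on either strand, so no base is in capitals. No match says only that these letters are not in this window.

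Ano1 was lower at its brighter probe set, and its dimmer one lay in the same direction with overlapping groups. At 1459713_s_at the deposited signal was 1430.9, 1537.4 and 1249.2 in control and 1004.1, 954.3 and 1197.7 in knockout arrays. The lowest control and the highest knockout array were close as deposited, and further apart after normalisation, where control levels were 10.44 to 10.70 and knockout levels 9.93 to 10.05. The means were 10.55 ± 0.14 and 9.99 ± 0.06 (SD, n = 3 each), a difference of -0.56 ± 0.09 (SE), or 1.47-fold higher in control. It was the smallest of the 4 differences, with 218 of 10916 tested genes further below 0.

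At 1426571_at the signal of Ano1 was 197.5, 164.9 and 125.8 in control and 127.4, 152.5 and 180.8 in knockout arrays. Control replicate 3 and knockout replicate 2 crossed the groups, at levels of 7.34 and 7.47. The difference was -0.21 ± 0.13 (SE). With the deposited scaling it was -0.07, while the median of all tested genes moved from -0.01 to 0.14. Pearson's r between both Ano1 probe sets was 0.60 over 6 arrays, and -0.02 after the group means were taken out. The suffix of 1459713_s_at marks a probe set whose probes can match more than 1 transcript.

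The Ano1 start-site window of RefSeq (GRCm38.p6, chr7:144738524-144738823, minus strand) is shown because it was the window of these genes with matches. Capitals mark GGTCA, an arm of the estrogen response element, here read on the opposite strand as TGACC.
Ano1 window: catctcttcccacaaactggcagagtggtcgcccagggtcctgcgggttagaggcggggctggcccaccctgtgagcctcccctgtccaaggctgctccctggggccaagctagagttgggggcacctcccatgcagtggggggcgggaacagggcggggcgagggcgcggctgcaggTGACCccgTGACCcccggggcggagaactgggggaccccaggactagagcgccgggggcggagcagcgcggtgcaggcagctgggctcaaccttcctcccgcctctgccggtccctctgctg
The arm stood there as a pair, starting at bases -72 and -64 from the start site, in the same orientation and therefore not as the palindrome. An arm was found in 40.48% of all 32851 windows and the palindrome in 0.07%. The window also held 4 matches to the GC box, which 35.66% of all windows held at least once. Its GC content was 71.7%. The CArG box, the AP-1 site and the MCAT element, found in 1.63%, 7.81% and 14.66% of all windows, had no match in it. The window of Zbed5 (chr5:129895473-129895772, plus strand) matched none of these motifs. For Kctd12b no window was available, so it was not searched. A match describes the letters and does not show binding.

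Kctd12b was lower at both of its probe sets by a like amount. At 1440355_at the deposited signal was 304.3, 189.3 and 196.8 in control and 119.9, 112.1 and 169.8 in knockout arrays. Every control array lay above every knockout array, with control replicate 1 the highest. Control arrays averaged 7.99 ± 0.24 and knockout arrays 7.14 ± 0.08 (SD, n = 3 each), a difference of -0.85 ± 0.14 (SE), or 1.80-fold higher in control. Of the tested genes, 47 had a difference further below 0.

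At 1442368_at the signal of Kctd12b was 115.0, 94.5 and 47.5 in control and 35.7, 43.3 and 42.5 in knockout arrays. Control replicate 3 stood close to the knockout arrays, at a level of 6.16 against 5.98 in knockout replicate 2, while control replicates 1 and 2 were at 6.97 and 6.91. The difference was -0.91 ± 0.24 (SE), or 1.89-fold higher in control, and -1.18 without control replicate 3. Pearson's r between both probe sets was 0.84 over 6 arrays and 0.20 after the group means were taken out. The agreement in direction was thus one of group means, and the order of arrays within a group was not shared.

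Zbed5 had 1 probe set of its own. At 1429671_at the deposited signal was 202.8, 217.9 and 154.0 in control and 105.8, 111.8 and 146.8 in knockout arrays. The deposited values of control replicate 3 and knockout replicate 3 nearly met. After normalisation the levels were 7.61 to 7.98 in control and 6.97 to 7.08 in knockout arrays. The means were 7.77 ± 0.19 and 7.03 ± 0.06 (SD, n = 3 each), a difference of -0.74 ± 0.13 (SE), or 1.67-fold higher in control, with 84 tested genes further below 0. A brighter probe set, 1450815_s_at, listed Zbed5 together with Chchd2, its neighbour on the chromosome, and a pseudogene of Chchd2, so it was not counted for Zbed5. Control arrays averaged 10.79 ± 0.15 there and knockout arrays 10.82 ± 0.02 (SD, n = 3 each), a difference of 0.04 ± 0.09 (SE).

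**Figure D2:**
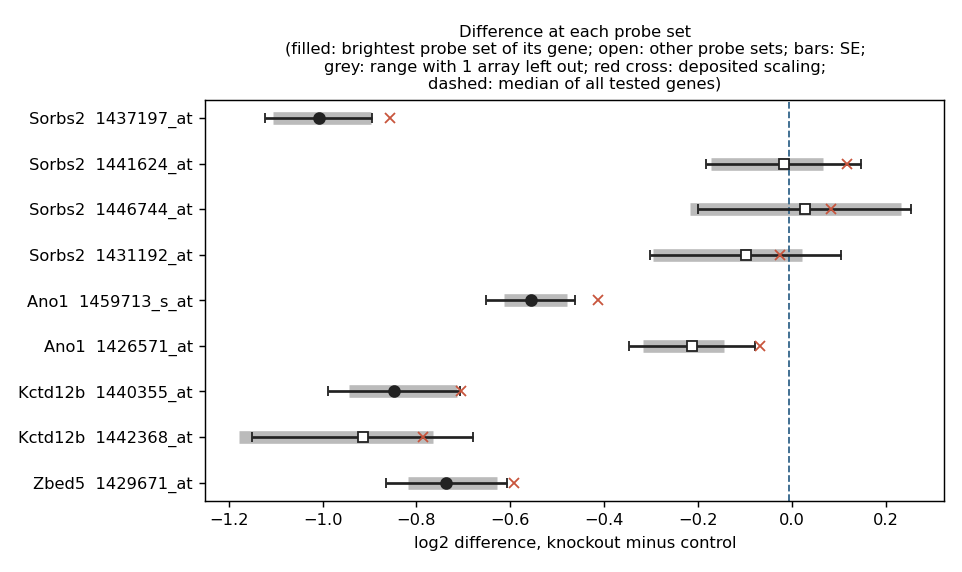
The log2 difference, knockout minus control, is plotted for each probe set with its SE, the range with 1 array left out (grey) and the value with the deposited scaling (cross). The 4 brightest probe sets (filled) and Kctd12b 1442368_at lie between -1.01 and -0.56, and the 3 dimmer Sorbs2 probe sets between -0.10 and 0.03, around the median of all tested genes of -0.01 (dashed).

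Of the 9 probe sets, 5 had groups that did not overlap, all lower, where 6.59% of all 45037 probe sets were lower in this way. The 4 brightest were chosen on this contrast, and nothing is read from their count. Of the 5 probe sets that did not stand for their gene, 1 was lower in this way, that of Kctd12b. Among the tested genes, 7.76% were lower with groups that did not overlap. With the deposited scaling, under which knockout replicate 3 had the highest median, this share was 0.770%. The 4 genes were among these too, on the same arrays they were chosen by, so nothing is read from this. By limma, 0% of the tested genes passed an adjusted p under 0.05 in either direction, and 512 lower and 639 higher genes had an unadjusted p under 0.05.

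With any 1 array left out, the difference ran from -1.11 to -0.90 for Sorbs2, from -0.61 to -0.48 for Ano1, from -0.94 to -0.71 for Kctd12b and from -0.82 to -0.63 for Zbed5, each at its brightest probe set. These are the arrays the genes were chosen by, so nothing is read from how narrow the ranges are. Averaging all probe sets of a gene gave -0.27 for Sorbs2, -0.39 for Ano1 and -0.88 for Kctd12b. The value of Sorbs2 therefore depended on which probe set stood for it. The order that supplied the 4 genes also held Rgs5, a G protein regulator of pericytes, at -0.59 ± 0.07 (SE), in the second place. Just outside stood Rgs4, of the same family, at -1.15 ± 0.20, and Cipc, which encodes a partner of the clock protein CLOCK, at -0.54 ± 0.09 (SE).

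The 4 genes shared the split between the groups, while their order of arrays within a group varied. Over the 6 arrays, Pearson's r between pairs of them was 0.83 to 0.97, which the choice of genes with separated groups fixes in large part. After group means were taken out, it ran from -0.83 for Ano1 with Kctd12b to 0.69 for Ano1 with Zbed5. With 6 arrays, these values cannot show whether any pair varies together within a group. In controls, Kctd12b was highest in replicate 1, Ano1 and Zbed5 in replicate 2. In knockout arrays, Sorbs2 and Kctd12b were lowest in replicate 2, Ano1 in replicate 3 and Zbed5 in replicate 1.

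Markers of muscle and vessel wall cells, which also use Sorbs2 and Ano1, differed widely between the arrays. Of 25 skeletal muscle markers, all with a probe set, 18 were tested, 14 lower and 4 higher, with a median difference of -0.53. Their summed deposited signal ran from 279.8 to 40355.8 in control and from 4805.4 to 22688.2 in knockout arrays, and no marker was at 0. Centred on their mean over 6 arrays, their levels averaged 1.82, -2.80 and 1.65 on the control arrays and -0.67, -0.65 and 0.66 on the knockout arrays. Control replicate 2 had the least signal of these markers. Sorbs2 was at 9.92 there, a level that its choice for separated groups held above the knockout arrays. The median turned with single arrays: leaving out control replicate 1, 2 or 3 gave 0.19, -2.05 or 0.05. The difference of Sorbs2 without control replicate 2 was -1.03, which rests on the values it was chosen by. The part of muscle RNA in it was not tested.

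Of 20 pericyte and smooth muscle markers 18 were tested, 16 lower and 2 higher, with a median of -0.40 against -0.01 for all tested genes. Leaving out 1 control array gave medians of -0.27 (replicate 1), -0.71 (replicate 2) and -0.13 (replicate 3). Their summed signal was 19319.0 to 32302.2 in control and 19611.3 to 24172.8 in knockout arrays, and none was at 0. Their centred levels averaged 0.35, -0.28 and 0.58 on the control arrays and -0.17 to -0.27 on the knockout arrays. The groups were lower without overlap for 6 of the 18, beside 7.76% of all tested genes. These were Rgs5, Rgs4, Notch3, Kcnj8, Abcc9 and Higd1b. That they lay above every knockout array in control replicate 2 too follows from the lack of overlap. Pericyte markers of the list with overlapping groups included Pdgfrb (-0.02 ± 0.08), Cspg4 (0.04 ± 0.11) and Ndufa4l2 (0.01 ± 0.19, SE). The list did not move as 1 block in control replicate 2. Rgs5 had 13.10 in control replicate 2 and 12.46 to 12.67 in knockout arrays, whereas Acta2, smooth muscle actin, had 11.63 there and 12.16 to 12.23 in knockout arrays. Rgs5, Acta2 and Myl9, a myosin light chain, were the brightest of the list in controls, and none passed the test over all genes (limma adjusted p of 0.12, 0.751 and 0.729). The part of these cells in the differences of the 4 genes was not tested.

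Other cell types also moved between the arrays. All 11 chondrocyte markers were higher, 10 of them without overlap beside 9.23% of all tested genes, with a median of 1.45. Their centred levels averaged -0.31, -0.95 and -0.75 on the control arrays and 0.89, 0.98 and 0.14 on the knockout arrays. The 8 tested fibroblast markers of 9 were all lower, 1 of them without overlap beside 7.76% of all tested genes, with a median of -0.46. Their centred levels were lowest in control replicate 2 at -0.83, against 0.88 and 0.71 on the other control and -0.32 to -0.14 on the knockout arrays. Their median was -0.13, -1.33 and -0.24 without control replicates 1, 2 and 3 in turn. Of 12 endothelial markers 11 were tested, 8 higher and 3 lower, with a median of 0.14 and summed signals of 665.8 to 991.2 (control) and 820.7 to 924.1 (knockout). The medians were -0.13 for 10 osteocyte, -0.06 for 6 osteoblast, 0.07 for 6 osteoclast, -0.14 for 9 macrophage and neutrophil and 0.41 for 3 neuron and glia markers that were tested. No marker of any list was at 0 on an array, and limma with all arrays called 0 of them over all genes. Without control replicate 2 it called 10 of 18 pericyte and smooth muscle, 9 of 20 skeletal muscle and 5 of 8 fibroblast markers lower. It also called 2 of 10 osteocyte and 2 of 10 endothelial markers lower. Called higher were 5 of 11 chondrocyte, 1 of 6 osteoblast and 1 of 2 neuron and glia markers. No osteoclast, macrophage or neutrophil marker was called. These counts stand beside 1.94% lower and 0.788% higher over all tested genes. With the deposited scaling limma called 8 of 11 chondrocyte and 1 of 6 osteoclast markers higher, beside 0.275% of all tested genes. The part of chondrocyte or fibroblast RNA in the differences of the 4 genes was not tested.

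**Figure D3:**
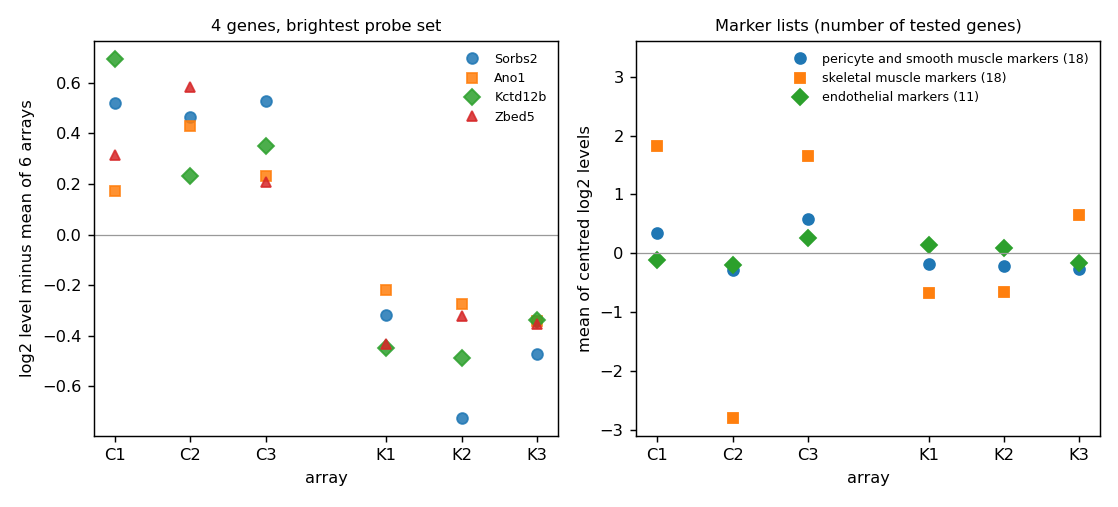
Left, the log2 level of each gene at its brightest probe set minus its mean over 6 arrays (C1 to C3 control, K1 to K3 knockout). Right, the mean of the centred log2 levels of the tested genes of 3 marker lists on the same arrays. The 4 genes lie above 0 on all control and below 0 on all knockout arrays, which their choice fixes in large part. Skeletal muscle markers range from -2.80 in C2 to 1.82 in C1.

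Relatives and partners of the 4 genes were listed by family and function, with earlier results of these data known, and 0 of the listed genes passed limma over all genes. Over all tested genes, 10.5% had an unadjusted p under 0.05, and the counts at that p below are to be read beside this share. Of 20 genes of the Sorbs family and its binding partners, 17 were tested, 11 higher and 6 lower, with a median of 0.02 and 1 at an unadjusted p under 0.05. This was Tln1, talin, which joins integrins to actin, which averaged 8.10 ± 0.23 over controls against 7.53 ± 0.11 over knockouts (SD, 3 arrays each; adjusted p = 0.292 by limma over all genes). Vcl, vinculin, differed by 0.02 ± 0.12 and Palld, palladin, by 0.23 ± 0.10 (SE). Sorbs3, vinexin, differed by 0.24 ± 0.23 (SE), with overlapping groups.

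Of 21 genes in the anoctamin and chloride channel list, 8 passed the level filter, 3 higher and 5 lower. Their median was -0.04, with 0 at an unadjusted p under 0.05. Besides the anoctamins Ano6 and Ano10 these were Clcn3 and genes of the Tmc and Tmem63 families. Ano6, a scramblase of the family, differed by -0.14 ± 0.10 and Ano10 by -0.16 ± 0.20 (SE), both with overlapping groups. The brightest probe set of Ano6 had signals of 1906.4, 2168.4 and 1765.5 in control and 1892.4, 1843.6 and 2176.4 in knockout arrays. Tmc6 and the antiporter Clcn3 differed by 0.26 ± 0.13 and 0.23 ± 0.14 (SE).

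Of 25 Kctd and GABA-B receptor genes, 17 were tested, 6 higher and 11 lower, with a median of -0.07. Kctd14 was the 1 member at an unadjusted p under 0.05. Kctd14 levels were 8.82, 9.18 and 8.52 on control and 8.05, 8.01 and 8.09 on knockout arrays, a difference of -0.79 ± 0.16 (SE, limma adjusted p = 0.241). Gabbr1, the receptor subunit that binds GABA, differed by 0.08 ± 0.11 (SE). Kctd8 and Kctd16, relatives that bind GABA-B receptors, had signals of 3.3 to 19.9 over their 3 probe sets and lay under the level filter. Gnb5, a G protein subunit, and Kctd10 differed by -0.25 ± 0.11 and -0.16 ± 0.10 (SE).

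Of 25 Zbed and other transposase-derived genes, 18 were tested, 9 higher and 9 lower, with a median of -0.01. At an unadjusted p under 0.05 stood Zbed4 (-0.46 ± 0.16), Tigd2 (-0.27 ± 0.10), Thap2 (-0.34 ± 0.13) and Thap4 (0.27 ± 0.11, SE). Zbed4 had signals of 59.9, 56.1 and 50.9 in control and 44.2, 42.3 and 36.4 in knockout arrays (limma adjusted p = 0.414). Zbed3 differed by 0.34 ± 0.16 and Zbed6 by 0.15 ± 0.17 (SE), with overlapping groups.

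Of 22 genes of the serum response factor (SRF) and actin group, 21 were tested, 10 higher and 11 lower, with a median of -0.0038. Filip1l, which encodes a filamin-interacting protein, was at 9.37, 8.91 and 9.22 in control and 8.37, 8.59 and 8.40 in knockout arrays, a difference of -0.71 ± 0.14 (SE, limma adjusted p = 0.202). Pdlim7, a LIM protein of the actin cytoskeleton, differed by 0.47 ± 0.15, Mrtfb, a coactivator of SRF, by 0.22 ± 0.10, and Csrp2 by 0.32 ± 0.14 (SE). Without control replicate 2, limma called 1.94% of all tested genes lower and 0.788% higher. Among the related genes these were Kctd14 (-0.62, adjusted p = 0.0463), Filip1l (-0.84, adjusted p = 0.0149), Tpm1 (-0.74, adjusted p = 0.0176), Tpm2 (-0.81, adjusted p = 0.01) and Fhl1 (-1.05, adjusted p = 0.00884), all lower. That is 4 of 21 in the SRF and actin list and 1 of 17 in the Kctd list. Tpm1, Tpm2 and Fhl1 had their lowest level in control replicate 2 (10.54, 10.70 and 9.51), the array with the least muscle marker signal, and differed by -0.28 ± 0.35, -0.46 ± 0.27 and -0.46 ± 0.44 (SE) with all arrays.

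**Figure D4:**
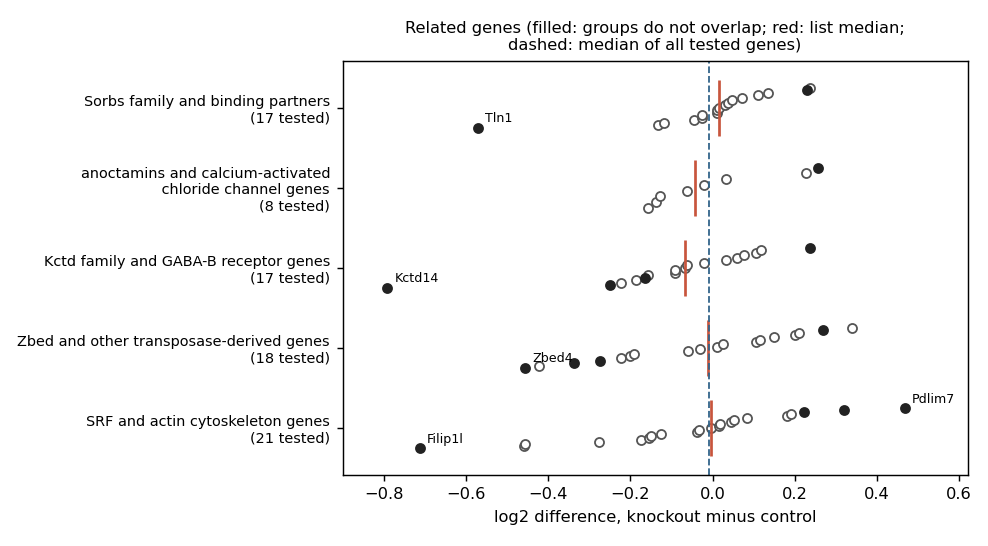
Each point is the log2 difference, knockout minus control, of a tested gene in 1 of 5 lists of relatives and partners. Filled points have groups that do not overlap, red lines are list medians (-0.07 to 0.02), and the dashed line is the median of all tested genes (-0.01). Kctd14 (-0.79), Filip1l (-0.71) and Tln1 (-0.57) lie furthest below 0.

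Over these lists the groups were lower without overlap for 1 of 17, 0 of 8, 3 of 17, 3 of 18 and 1 of 21 genes, in the order given, beside 7.76% of all tested genes. They were higher without overlap for 1, 1, 1, 1 and 3 genes, beside 9.23%.

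The genes whose levels followed each of the 4 most closely over the 6 arrays came from many functions. For Sorbs2 they were Tmem182, Foxm1, Azi2, Slc25a38 and Acbd4, with Pearson's r from 0.982 to 0.990. For Ano1 they were Ggcx, the vitamin K-dependent carboxylase, Mkrn2, Tmem87a, Echdc3 and Gucy1a2, a subunit of a nitric oxide receptor (r from 0.985 to 0.991). For Kctd12b they were Otud1, Zfp467, Bambi, Mfsd8 and Ubxn2b, with r from 0.988 to 0.998. Zbed5 was followed by Coa6, Cyb5r4, Tmem87a, Rgs2 and Scd1 (r from 0.989 to 0.994). Between 45 and 58 genes, or 0.41% to 0.53% of those tested, had an r over 0.95 with each of the 4. With 6 arrays and 2 groups, such values rest largely on the split between groups. After the group means were taken out, Otud1 had an r of 0.98 with Kctd12b, Cyb5r4 of 0.99 with Zbed5, and the genes named for Sorbs2 0.75 to 0.86, values that the choice of the closest genes on the same arrays favours. Otud1, a deubiquitinase, differed by -0.73 ± 0.13 and Gucy1a2 by -0.85 ± 0.17 (SE).

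The chromosomal neighbours of the 4 genes were read in the same way. Taking the 3 nearest protein-coding genes on each side in RefSeq, 13 of 24 were tested, 6 lower and 7 higher, with a median of 0.04, and limma called 0 of them, also at an unadjusted p under 0.05. For 1 of the 13, Fadd beside Ano1 (-0.17 ± 0.13, SE), the groups were lower without overlap, a share near the 7.76% of all tested genes. Pdlim3, the neighbour of Sorbs2 and a Z-disc protein, differed by -0.86 ± 0.68 (SE), and its groups overlapped. Cttn, cortactin, near Ano1, differed by -0.0040 ± 0.084, and Nbdy beside Kctd12b by 0.06 ± 0.10 (SE).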

How the data were processed

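The authors deposited 1 intensity per probe set and array on a linear scale. GCOS made them, per the submitters' processing notes, without a version number. The sources used here do not give its background correction, probe summary or scaling. After 64 control probe sets of 45101 were left out, the signals were quantile normalised and log2(signal + 16) was taken. Of the rest, 34945 probe sets listed 1 gene, 932 several and 9160 are unnamed here. The gene identifier matched RefSeq for 34741 probe sets. The brightest probe set stood for a gene, the lowest 40% of 18193 genes (under 5.38) were left out, and 10916 were tested with limma 3.58.1 in R 4.3.3 (lmFit, eBayes with trend, 2-sided, no covariate, Benjamini-Hochberg at 0.05). Standard errors of probe sets come from the same fit over all 45037 probe sets. The steps were also tested on simulated data.

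The 4 genes and all lists were chosen with earlier results of these data known, which already showed the 4 as lower. Genes named in the text are the 4 genes, Esr1, close relatives, up to 4 members of each related list with the smallest p, the 5 most correlated genes per member, Rgs5 and the next 2 in order, and the 3 brightest marker genes. Vcl, Gabbr1, Dmp1 and Phex, the genes past the threshold without control replicate 2, and the neighbours, whose rule was added later, lie outside this rule. So do the pericyte markers Notch3, Kcnj8, Abcc9, Higd1b, Pdgfrb, Cspg4 and Ndufa4l2. All of these were chosen after their values were seen. Motifs were searched on both strands. Alternatives were another scaling, pseudocount, filter, gene summary, array weights, a replicate block and leaving out each array. Same-numbered arrays of the groups did not deviate together (r of -0.30, 0.04 and -0.04 over genes). Differently numbered arrays gave r from -0.25 to 0.32. These values cannot show whether the numbers pair the arrays, and the main fit did not pair them.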

Additional observations from a re-analysis of the deposited data

How the results depend on the processing

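The 4 genes were chosen for groups without overlap, which most settings leave as they are, so that nothing is read from their lower values under each setting. With the deposited scaling the differences were -0.86 for Sorbs2, -0.41 for Ano1 and -0.59 for Zbed5. With it 30 genes were called higher and 84 genes were lower without overlap. Medians were 0.17 for the Sorbs family and partner list, 0.092 for the anoctamin and channel list and 0.087 for the Kctd and GABA-B list. They were 0.13 for the Zbed and other transposase-derived list, 0.18 for SRF and actin genes and 0.14 for all genes. A pseudocount of 64 gave -0.57 for Zbed5, which the added constant shrinks by construction. Without a filter 1285 genes were lower without overlap, and the Kctd median was -0.042 (-0.093 with 60% left out). The mean of all probe sets gave -0.27 for Sorbs2, -0.39 for Ano1 and a Kctd median of -0.025. Leaving out 1 array gave 1254 to 1983 genes lower and 1389 to 1761 higher without overlap, which needs fewer arrays to agree, and called 0 to 212 lower and 0 to 86 higher, the highest counts without control replicate 2. Medians then ran from -0.086 to 0.034 for the anoctamin and channel list. They ran from -0.093 to -0.039 for the Kctd and GABA-B list and from -0.10 to 0.048 for the Zbed and other transposase-derived list. The cause of the other shifts was not tested. The replicate block left the differences of the 4 genes as they were (-1.01 for Sorbs2) and called 0 genes in either direction. Whether the numbers pair the arrays is not known. With 3 arrays against 3, an exact permutation test cannot go below p = 0.1. Signals under 16, which made up 38.6% to 46.9% of each array, limit what the dim Sorbs2 probe sets can show.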
